A study of Homo sapiens with 6 samples.

Results

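The NRF2 antioxidant genes are the transcription factor gene NFE2L2, its repressor gene KEAP1 and 7 antioxidant genes, NQO1, HMOX1, GCLC, GCLM, TXNRD1, SRXN1 and GPX4. They were taken by symbol from the deposited gene table and are 9 of its 46427 genes. RNA was sequenced from MDA-MB-231 cells, an established line of triple-negative human breast cancer cells, after transfection with control-siRNA (3 cell preparations) or with TAZ-siRNA, which targets WWTR1, the gene that encodes the Hippo pathway co-activator TAZ (3 cell preparations). Both groups are the same line and carry no engineered allele, and all 6 preparations were grown in low-glucose medium (5.5 mM) with 10% serum. The results concern 1 line and 1 siRNA product for WWTR1. The siRNA concentration and the treatment time of the sequenced cells are not given in the sources used here.

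NRF2, the protein made from NFE2L2, is held at a low level by KEAP1, an adaptor that presents it to a CUL3 ubiquitin ligase for destruction by the proteasome. Electrophiles and oxidants modify cysteines of KEAP1, and NRF2 then accumulates, pairs with a small MAF protein and binds antioxidant response elements (AREs) near genes for glutathione synthesis, thioredoxin recycling, quinone reduction and heme breakdown. BACH1 competes for many of these elements, most clearly at HMOX1. NRF2 is controlled mainly at the protein level, so the mRNA of its target genes is commonly read as a sign of its activity.

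Total estimated counts per library ranged from 49662504 to 66769103 with control-siRNA and from 48307548 to 71749634 with TAZ-siRNA, and levels are given as CPM, counts per TMM-normalized library size on a fixed scale. WWTR1 lay at 190 to 192 CPM in the control-siRNA libraries and at 15.1 to 17.3 CPM in the TAZ-siRNA libraries (log2 fold change -3.53, SE 0.061, edgeR adjusted p = 2.5e-10). Mesenchymal markers of the line were abundant (VIM at 3297 to 3734 CPM, CD44 at 499 to 526 CPM), ESR1 and PGR were at or below 0.0883 CPM, and PTPRC and CD3E had 0 counts in every library. S100A4 was low for a marker of this line, at 6.69 to 7.87 CPM. Some markers listed as low or absent had counts. GATA3 was at 5.88 to 9.53 CPM, EPCAM at 0.771 to 1.59 CPM and CDH1 at 0.0406 to 0.578 CPM. PECAM1, listed as a marker of other cells, was at 4.15 to 6.29 CPM. The TAZ-siRNA libraries differed from each other more than the control-siRNA libraries did. Among the 4719 genes with a mean of 50 CPM or more, the median range across the 3 libraries of a group was 0.152 on the log2 scale with TAZ-siRNA and 0.0846 with control-siRNA. With all libraries 3749 genes passed an edgeR adjusted p of 0.05, against 5928 without TAZ-siRNA replicate 3 and 1937 to 2687 without any one of the others.

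Promoter windows that hold a searched motif are shown first, because the ARE is the sequence through which NRF2 acts. RefSeq windows (GRCh38.p14) of 300 bases, from 250 before the transcription start to 50 from the start on, were at hand for 8 of the 9 genes, 13 windows in all, and HMOX1 had none. The ARE core TGACNNNGC, searched on both strands, was found in 4 windows of 3 genes, KEAP1, GCLM and TXNRD1, and in 13.3% of all 35116 promoter windows. The TEAD core GGAATG, the motif bound by the partners of TAZ, was found on either strand in 1 window, that of SRXN1, and in 14% of all windows. The windows are written 5′ to 3′ along the gene, with the matched letters in capitals. That of KEAP1 is chr19:10502722-10503021 on the minus strand, at the start of transcript NM_012289, with ARE cores beginning 54 and 31 bases before the start. That of GCLM is chr1:93909381-93909680 on the minus strand, with an ARE core 34 bases before the start. That of TXNRD1 is chr12:104286782-104287081 on the plus strand, the start shared by its most abundant transcripts, with an ARE core 102 bases before the start. The other TXNRD1 window, chr12:104215529-104215828, has ARE cores beginning 99 and 8 bases before its start and is not printed. That of SRXN1 is chr20:653151-653450 on the minus strand, with the TEAD core 51 bases before the start.
KEAP1: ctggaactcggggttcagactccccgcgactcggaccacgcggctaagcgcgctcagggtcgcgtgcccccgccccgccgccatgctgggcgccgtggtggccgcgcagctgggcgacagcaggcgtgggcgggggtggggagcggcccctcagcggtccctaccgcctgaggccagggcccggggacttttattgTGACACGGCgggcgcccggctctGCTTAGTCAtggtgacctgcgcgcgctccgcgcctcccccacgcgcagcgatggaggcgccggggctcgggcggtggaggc
GCLM: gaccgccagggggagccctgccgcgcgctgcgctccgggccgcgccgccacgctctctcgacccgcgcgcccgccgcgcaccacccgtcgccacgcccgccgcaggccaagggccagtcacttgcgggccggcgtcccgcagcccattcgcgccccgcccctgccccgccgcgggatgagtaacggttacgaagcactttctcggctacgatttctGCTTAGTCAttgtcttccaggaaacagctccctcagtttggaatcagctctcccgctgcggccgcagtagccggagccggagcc
TXNRD1: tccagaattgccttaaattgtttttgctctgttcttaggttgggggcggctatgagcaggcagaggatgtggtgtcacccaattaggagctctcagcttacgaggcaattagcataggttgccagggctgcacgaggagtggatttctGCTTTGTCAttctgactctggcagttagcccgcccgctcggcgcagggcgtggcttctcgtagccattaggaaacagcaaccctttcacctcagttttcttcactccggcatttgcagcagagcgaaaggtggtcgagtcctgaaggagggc
SRXN1: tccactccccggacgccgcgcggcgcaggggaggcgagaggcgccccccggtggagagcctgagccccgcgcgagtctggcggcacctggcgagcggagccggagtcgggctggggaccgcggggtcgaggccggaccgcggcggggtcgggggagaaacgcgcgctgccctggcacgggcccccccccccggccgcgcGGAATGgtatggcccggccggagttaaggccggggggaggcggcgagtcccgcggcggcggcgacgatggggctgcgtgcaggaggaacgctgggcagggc
The KEAP1 and GCLM windows hold the same 9 letters on the minus strand of the window, TGACTAAGC. These matches are descriptions of the letters and were not tested for binding. Sequence outside the windows was not searched, so a gene without a match here is not shown to lack the motif.

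All 9 genes passed the expression filter. None was called at an adjusted p under 0.05 by edgeR, against 22.1% of the 16966 genes tested (11.9% higher and 10.2% lower). None had groups that did not overlap in CPM, against 39.6% of genes. In TPM, a level per transcript length scaled to a common total, the groups of NFE2L2, KEAP1 and NQO1 did not overlap. With control-siRNA against TAZ-siRNA, NFE2L2 was at 234 to 247 against 253 to 304 TPM. KEAP1 was at 63.4 to 67.8 against 56.1 to 63.0 TPM, and NQO1 at 464 to 497 against 505 to 598 TPM. The share of all genes whose groups do not overlap in TPM was not computed, so this separation is not read as a result about these genes. At an unadjusted p under 0.05, 2 of the 9 passed by edgeR (NFE2L2 and KEAP1), against 35.8% of genes, and 2 passed by DESeq2 (33.3% of genes) and by limma (32.4% of genes). The median log2 fold change of the 9 genes was -0.09, with 4 above and 5 below 0, beside a median of -0.0054 over all genes tested. In these bulk libraries, fewer cells that use a gene and less of its RNA per cell cannot be told apart.

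NFE2L2 (chr2:177230303-177265131), the gene of NRF2 itself, was measured at 289, 273 and 279 CPM in control-siRNA replicates 1, 2 and 3 and at 326, 281 and 352 CPM in TAZ-siRNA replicates 1, 2 and 3. TAZ-siRNA replicates 1 and 3 lay above all control-siRNA libraries, and TAZ-siRNA replicate 2 lay among them. This amounted to a log2 fold change of 0.19 (SE 0.077, 95% interval 0.02 to 0.36), and the edgeR adjusted p was 0.101. Without TAZ-siRNA replicate 2 it was 0.28 with an adjusted p of 0.0142, when 15.3% of genes were called, and without TAZ-siRNA replicate 3 it was 0.12 with an adjusted p of 0.142. Of the other pathway genes examined, the one whose levels ran closest to those of NFE2L2 over the 6 libraries was CUL3, the ligase scaffold, with a root mean square difference of 0.054 in centred log2 CPM. The next were SLC40A1, the iron exporter ferroportin, at 0.066 and the glutathione transferase gene MGST2 at 0.066.

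KEAP1 (chr19:10486125-10503356), the repressor, was measured at 74.3, 73.7 and 81.9 CPM with control-siRNA and at 61.7, 62.6 and 75.1 CPM with TAZ-siRNA. TAZ-siRNA replicates 1 and 2 were below every control-siRNA library, while replicate 3 fell between them. TAZ-siRNA differed from control-siRNA by a log2 fold change of -0.20 (SE 0.078, 95% interval -0.38 to -0.03), and the edgeR adjusted p was 0.0858. Leaving out TAZ-siRNA replicate 3 gave -0.30 with an adjusted p of 5.5e-04, when 33.7% of genes were called, and leaving out any one of the others gave -0.23 to -0.15 with no call.

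KEAP1 was made from 2 main transcripts with different starts. NM_203500 stood at 37.2, 37.1 and 38.5 TPM (a level per transcript length, scaled to a common total) with control-siRNA and at 31.8, 28.9 and 29.0 TPM with TAZ-siRNA. NM_012289, whose start lies in the window shown above, stood at 22.4, 23.4 and 27.9 TPM with control-siRNA and at 22.0, 23.1 and 29.5 TPM with TAZ-siRNA. The groups did not overlap for the first transcript and overlapped for the second. Groups also did not overlap for NM_000903 of NQO1 (423 to 457 TPM with control-siRNA against 461 to 555 TPM with TAZ-siRNA). The same held for NM_182742 of TXNRD1 (17.0 to 21.9 against 22.0 to 25.8 TPM) and XM_005260173 of KEAP1 (0.177 to 0.518 against 0.850 to 2.25 TPM). These were higher with TAZ-siRNA. The share of all transcripts whose groups do not overlap was not computed, so these transcripts are not read as changed. XM_005260173 was also at a low level in every library. Transcript levels rest on the division of shared reads between isoforms, and no test was run on them.

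NFE2L2 and KEAP1 can also be read against each other within a library, which does not depend on scaling between libraries. The ratio of KEAP1 to NFE2L2 in TPM was 0.259, 0.264 and 0.290 with control-siRNA and 0.185, 0.224 and 0.207 with TAZ-siRNA. All 3 TAZ-siRNA libraries were below all 3 control-siRNA libraries, with a difference of -0.40 in log2 ratio. The exact two-sided permutation p was 0.1, the smallest that 3 libraries against 3 allow, and 0.4 after adjustment over the 4 ratios computed. The difference ranged from -0.47 to -0.33 with each library left out.

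**Figure D1:**
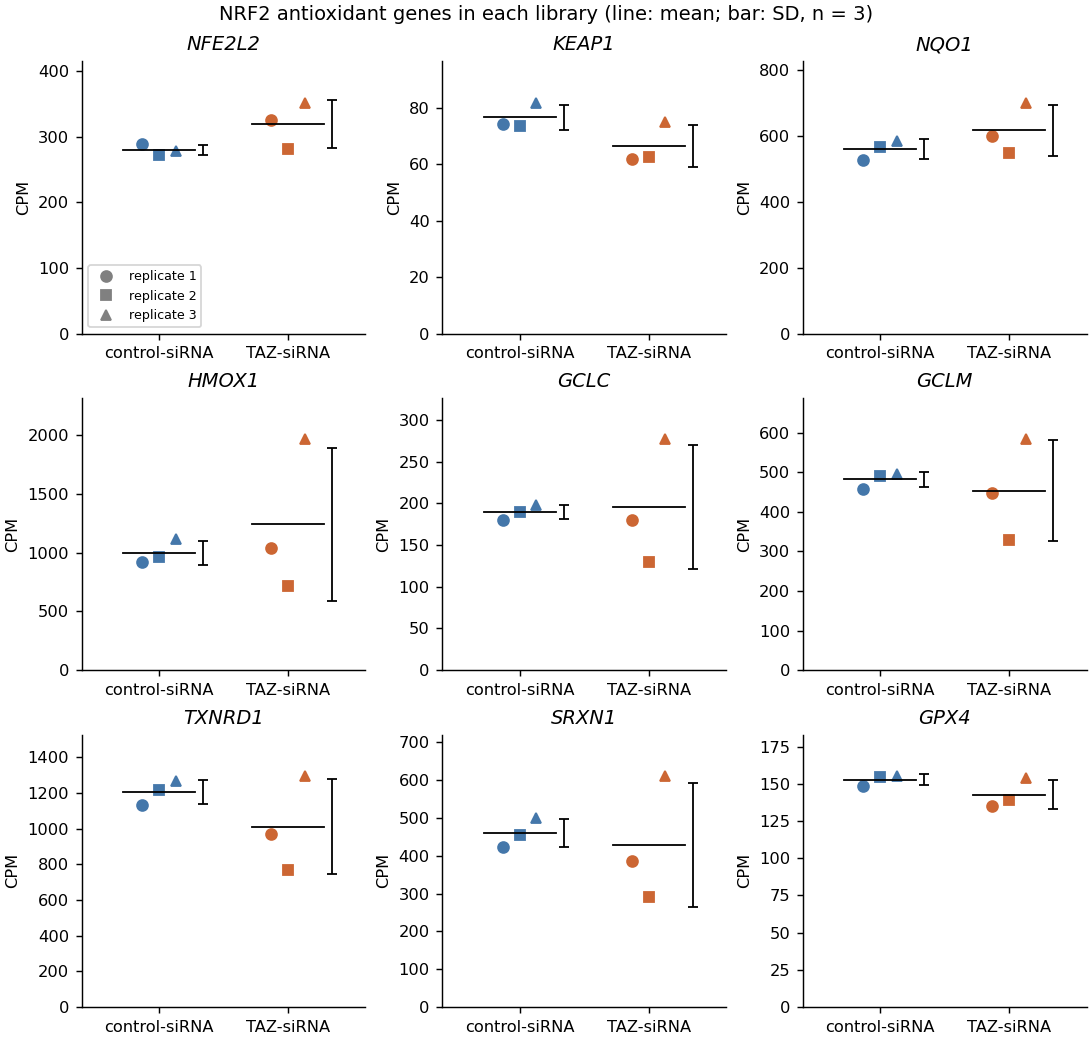
Level of each of the 9 genes in CPM (vertical axis, from 0) in the 3 control-siRNA (blue) and 3 TAZ-siRNA (orange) libraries. Circles, squares and triangles are replicates 1, 2 and 3, the line is the group mean and the bar beside it the SD (n = 3). The TAZ-siRNA points are farther apart than the control-siRNA points for every gene, most of all for HMOX1, which ran from 714 to 1964 CPM.

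Quinone reduction is represented by NQO1 (chr16:69709401-69726560), an NAD(P)H-dependent reductase that keeps quinones from redox cycling. It was measured at 529, 568 and 587 CPM with control-siRNA and at 602, 550 and 702 CPM with TAZ-siRNA. The groups overlapped in CPM, since TAZ-siRNA replicate 2 lay within the control-siRNA values, but not in TPM. For TPM no share over all genes is at hand to set beside this. The log2 fold change was 0.14 (SE 0.086, 95% interval -0.05 to 0.33, edgeR adjusted p = 0.279). It was 0.04 without TAZ-siRNA replicate 3 and 0.22 without TAZ-siRNA replicate 2, and was called in neither case.

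Heme breakdown is represented by HMOX1 (chr22:35381096-35394207), heme oxygenase 1, which releases biliverdin, carbon monoxide and iron. Its level was 921, 963 and 1113 CPM with control-siRNA and 1043, 714 and 1964 CPM with TAZ-siRNA. TAZ-siRNA replicate 3 held the highest value of the 6 libraries and TAZ-siRNA replicate 2 the lowest. The log2 fold change was 0.31 with an SE of 0.42 and a 95% interval of -0.79 to 1.42 (edgeR adjusted p = 0.654). It was -0.18 without TAZ-siRNA replicate 3 and 0.59 without TAZ-siRNA replicate 2, so its sign rested on 1 library.

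GCLC and GCLM encode the catalytic and the modifier subunit of glutamate-cysteine ligase, the rate-limiting enzyme of glutathione synthesis. GCLC (chr6:53497341-53545101) was at 181, 189 and 197 CPM with control-siRNA and at 180, 130 and 277 CPM with TAZ-siRNA. GCLM (chr1:93885199-93910370) was at 459, 491 and 496 CPM with control-siRNA and at 447, 329 and 583 CPM with TAZ-siRNA. For both subunits TAZ-siRNA replicate 3 was the highest and TAZ-siRNA replicate 2 the lowest of all libraries. The log2 fold change was 0.05 for GCLC (SE 0.30, 95% interval -0.73 to 0.83, edgeR adjusted p = 0.930). For GCLM it was -0.09 (SE 0.20, 95% interval -0.57 to 0.39, edgeR adjusted p = 0.789). With single libraries left out the values ran from -0.28 to 0.27 for GCLC and from -0.31 to 0.10 for GCLM. The ratio of GCLC to GCLM in TPM was 0.518 to 0.540 with control-siRNA and 0.553, 0.522 and 0.631 with TAZ-siRNA replicates 1, 2 and 3. The groups overlapped (difference 0.10 in log2 ratio, exact permutation p = 0.3).

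Thiol recycling is represented by TXNRD1, the cytosolic thioredoxin reductase, and SRXN1, sulfiredoxin, which repairs overoxidized peroxiredoxins. TXNRD1 (chr12:104215779-104350307) was measured at 1131, 1217 and 1267 CPM with control-siRNA and at 970, 767 and 1294 CPM with TAZ-siRNA. SRXN1 (chr20:646615-653200) was measured at 424, 455 and 499 CPM with control-siRNA and at 386, 290 and 611 CPM with TAZ-siRNA. In both genes TAZ-siRNA replicates 1 and 2 were below every control-siRNA library and TAZ-siRNA replicate 3 was above every one. The log2 fold change of TXNRD1 was -0.25 (SE 0.18, 95% interval -0.67 to 0.16, edgeR adjusted p = 0.349), and that of SRXN1 was -0.10 (SE 0.29, 95% interval -0.85 to 0.65, edgeR adjusted p = 0.843). Without TAZ-siRNA replicate 3, when 33.7% of genes were called, TXNRD1 was at -0.47 with an edgeR adjusted p of 0.0073. SRXN1 was then at -0.44 and not called. Without TAZ-siRNA replicate 2, TXNRD1 was at -0.09 (edgeR adjusted p = 0.653) and SRXN1 at 0.12.

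GPX4 (chr19:1103994-1106779) encodes the selenoenzyme that reduces lipid hydroperoxides in membranes and thereby holds back ferroptosis. It was measured at 149, 155 and 155 CPM with control-siRNA and at 135, 139 and 154 CPM with TAZ-siRNA. TAZ-siRNA replicates 1 and 2 were below the control-siRNA libraries and replicate 3 was among them. GPX4 had a log2 fold change of -0.10 (SE 0.056, 95% interval -0.22 to 0.03, edgeR adjusted p = 0.237). It was -0.15 with an edgeR adjusted p of 0.0093 without TAZ-siRNA replicate 3, when 33.7% of genes were called. Without TAZ-siRNA replicate 1 it was -0.06 (edgeR adjusted p = 0.576). The ratio of TXNRD1 to GPX4 in TPM overlapped between the groups (1.64, 1.69 and 1.76 against 1.54, 1.19 and 1.81, exact permutation p = 0.5), as did that of NQO1 to HMOX1 (0.356, 0.365 and 0.326 against 0.357, 0.477 and 0.221, exact permutation p = 0.9).

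**Figure D2:**
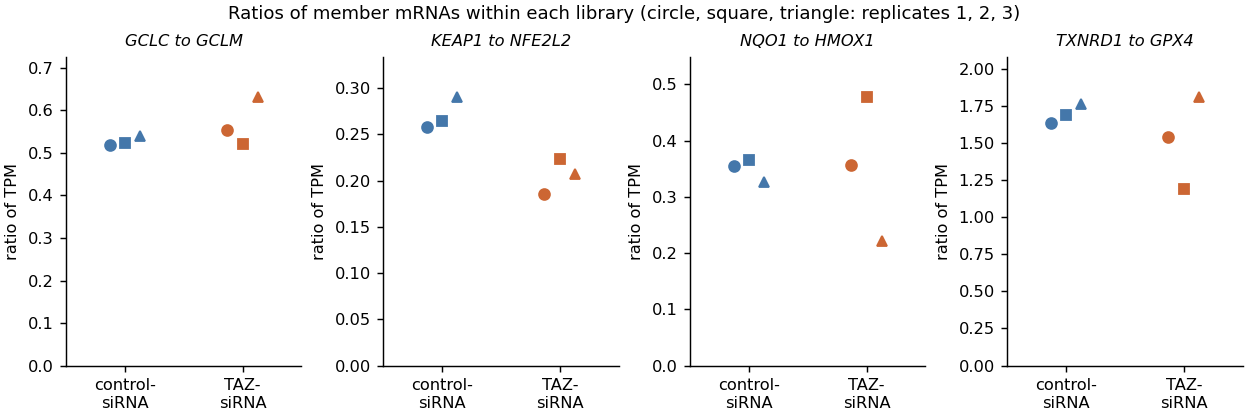
Ratio of the TPM of 2 genes within each library (vertical axes, from 0), for 4 pairs, with control-siRNA in blue and TAZ-siRNA in orange. KEAP1 to NFE2L2 is the pair whose groups do not overlap, at 0.259 to 0.290 against 0.185 to 0.224, while the other pairs overlap.

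**Figure D3:**
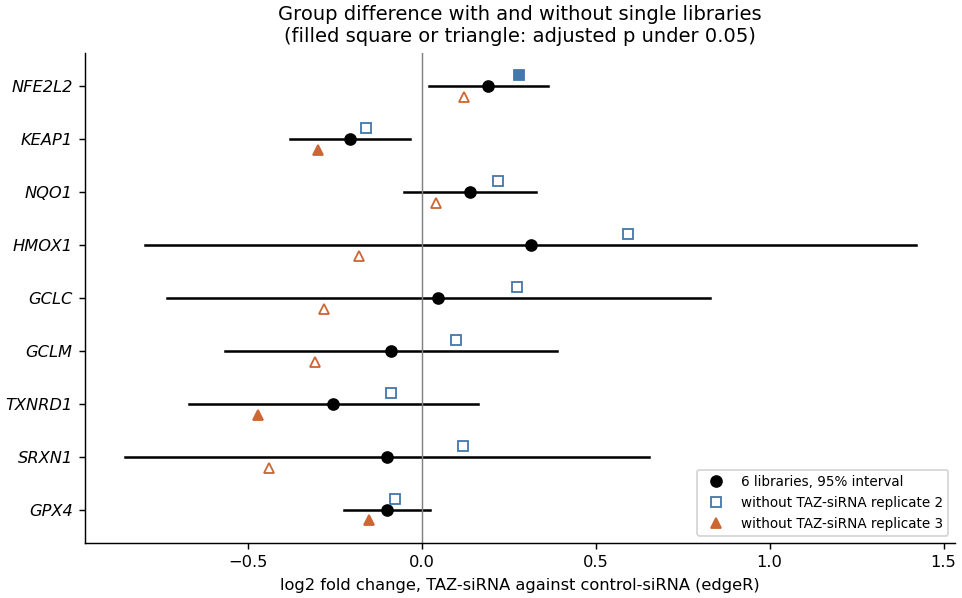
Log2 fold change of TAZ-siRNA against control-siRNA by edgeR (horizontal axis) for each gene, with the 95% interval from all 6 libraries (black), and without TAZ-siRNA replicate 2 (squares) or replicate 3 (triangles), filled where the adjusted p was under 0.05. The points of HMOX1, GCLC, GCLM and SRXN1 lie on both sides of 0, whereas those of NFE2L2, KEAP1, NQO1, TXNRD1 and GPX4 stay on one side. Only the 95% intervals of NFE2L2 and KEAP1 leave out 0.

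The spread within the TAZ-siRNA group was wide for the target genes. TAZ-siRNA replicate 3 exceeded TAZ-siRNA replicate 2 by 2.75-fold for HMOX1, 2.13-fold for GCLC, 2.11-fold for SRXN1, 1.77-fold for GCLM and 1.69-fold for TXNRD1. The excess was smaller for NQO1 (1.28-fold), NFE2L2 (1.25-fold), KEAP1 (1.20-fold) and GPX4 (1.11-fold). Between the highest and lowest control-siRNA libraries, the same 9 genes differed by 1.04-fold (GPX4) to 1.21-fold (HMOX1). Their range was wider with TAZ-siRNA than with control-siRNA in 9 of 9 genes, against 78.7% of genes at 50 CPM or more.

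Set among the ranges of the 4719 genes at 50 CPM or more, the TAZ-siRNA range stood at the 99.9th percentile for HMOX1, GCLC and SRXN1, the 99.6th for GCLM and the 99.5th for TXNRD1. It stood at the 93rd percentile for NQO1, the 91.1st for NFE2L2, the 86.5th for KEAP1 and the 63.2nd for GPX4. A difference of 2-fold or more between TAZ-siRNA replicates 3 and 2, with replicate 3 higher, was seen in 9 of the 4719 genes, among them HMOX1, GCLC and SRXN1. These percentiles describe single libraries of 1 group and carry no test. Of the 9 genes, 5 (HMOX1, GCLC, GCLM, TXNRD1 and SRXN1) were highest in TAZ-siRNA replicate 3 and lowest in TAZ-siRNA replicate 2 of all 6 libraries, an order found in 6.57% of genes at 50 CPM or more. Among the control-siRNA libraries the range of HMOX1 was also wide for its level, at the 99th percentile, and that of SRXN1 was at the 97.7th.

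WWTR1 did not follow this order, since it was low in all 3 TAZ-siRNA libraries (17.3, 17.0 and 15.1 CPM). The share of counts on ribosomal RNA genes was 0.616, 0.758 and 0.580% in TAZ-siRNA replicates 1, 2 and 3 and 0.577, 0.486 and 1.23% in control-siRNA replicates 1, 2 and 3. TAZ-siRNA replicate 2 also had the smallest total count of the 6 libraries. The part of depth or ribosomal RNA in the spread of these genes was not tested.

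**Figure D4:**
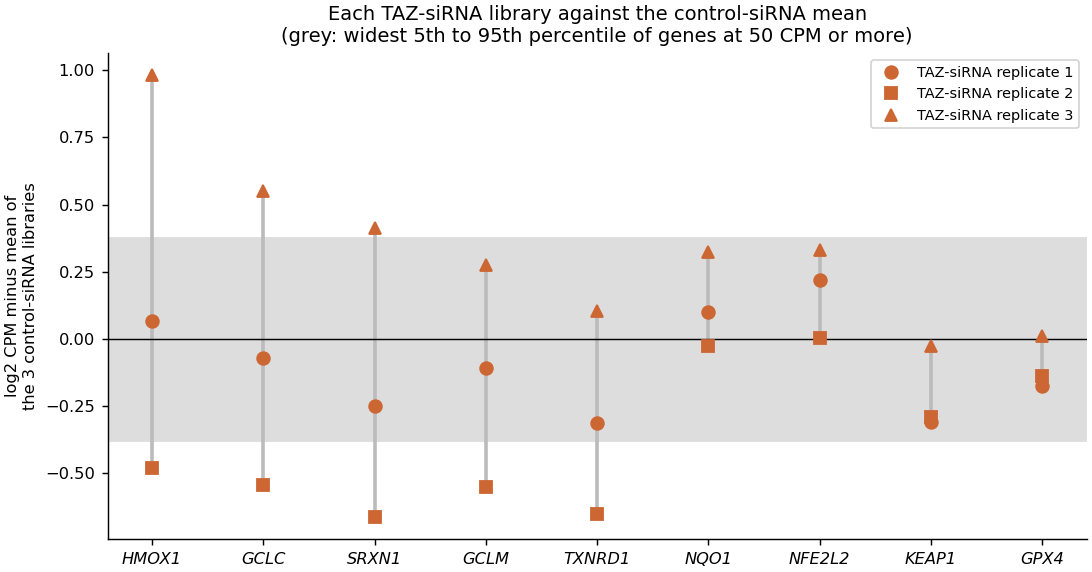
Log2 CPM of each TAZ-siRNA library minus the mean of the 3 control-siRNA libraries (vertical axis) for the 9 genes, with replicates as circle, square and triangle joined by a line. The grey band gives the widest 5th to 95th percentile range of such differences in a TAZ-siRNA library over genes at 50 CPM or more. For HMOX1, GCLC and SRXN1, replicate 3 lies above the band and replicate 2 below it. For GCLM and TXNRD1 only replicate 2 lies outside the band, below it. NFE2L2, KEAP1, NQO1 and GPX4 lie inside it.

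Per length, the 9 mRNAs covered a wide range of levels. With control-siRNA the median TPM fell in the order HMOX1 (1363), TXNRD1 (725.5), NQO1 (494), GPX4 (412), SRXN1 (396), NFE2L2 (240.1), GCLM (206), GCLC (111) and KEAP1 (63.9). GPX4 and SRXN1 were the neighbours whose control-siRNA values overlapped. The order of medians was the same with TAZ-siRNA. There the values of TXNRD1 and NQO1, GPX4 and SRXN1, SRXN1 and NFE2L2, and GCLM and GCLC overlapped. One transcript made up most of the TPM of NQO1 (NM_000903, 91.1 to 92.7% over the 6 libraries), GPX4 (NM_001367832, 92.1 to 96.2%), GCLC (NM_001498, 86.9 to 94.3%), NFE2L2 (NM_006164, 73.3 to 92.5%) and GCLM (NM_002061, 69.7 to 92.1%). TXNRD1 was divided between NM_182729 (52.7 to 61.5%) and NM_003330 (31.5 to 35.9%), which share the promoter window shown above.

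A wider list of 150 redox genes in 9 roles placed these values in their pathway, and 144 of them were tested. In all, 40 were called by edgeR (27.8%, against 22.1% of all genes), 23 of them higher (all genes: 11.9%) and 17 lower (all genes: 10.2%), and their median log2 fold change was -0.02. Groups did not overlap for 56 genes (38.9%, against 39.6%). The order seen in the 5 target genes was highest in TAZ-siRNA replicate 3 and lowest in TAZ-siRNA replicate 2. Over all genes tested 4.37% had it, and over genes at 50 CPM or more 6.57%. In the wider list, which holds genes on both sides of 50 CPM, it was found in 21 of the 144 genes (14.6%). These included NRF2 targets of textbook standing such as TXN, ME1, AKR1C1, PTGR1, OSGIN1, FTH1 and FTL. Reads of AKR1C1 can be shared with its near-identical relatives, and those of the ferritin genes with their pseudogenes. The autophagy receptor gene SQSTM1, whose protein binds KEAP1, was measured at 1067, 1168 and 1286 CPM with control-siRNA and at 947, 828 and 1357 CPM with TAZ-siRNA.

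NRF2 partners and regulators were called higher in 5 and lower in 2 of 18 genes, with a median of 0.07. MAFG, a small MAF partner of NRF2, rose from 102 ± 2.23 to 125 ± 6.25 CPM (SD, n = 3; log2 fold change 0.28, edgeR adjusted p = 0.0033). BACH2, a repressor related to BACH1, rose from 6.97 ± 0.201 to 11.1 ± 1.86 CPM (0.67, edgeR adjusted p = 0.0031). BACH1 itself was at 116 ± 2.73 and 111 ± 6.39 CPM and was not called. CUL3 was called higher (0.29, edgeR adjusted p = 0.0139), as was GSK3B, a kinase that marks NRF2 for a KEAP1-independent route of destruction (0.36, edgeR adjusted p = 0.0078). The call of CUL3 held with 3 of the 6 libraries left out in turn, and its adjusted p reached 0.0661, and limma on log2(FPKM + 1) gave 0.25 with an adjusted p of 0.0680. PGAM5, a mitochondrial phosphatase that binds KEAP1, was called lower (-0.23, edgeR adjusted p = 0.0088, and 0.0510 at most with a library left out).

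Genes of glutathione synthesis and use were called higher in 2 and lower in 6 of the 26 tested, with a median of -0.07. SLC7A11, the cystine importer that feeds glutathione synthesis, fell from 455 ± 22.6 to 380 ± 41.7 CPM (-0.26, edgeR adjusted p = 0.0409). Glutathione reductase, GSR, fell from 78.7 ± 2.54 to 64.3 ± 8.24 CPM (-0.29, edgeR adjusted p = 0.0258), and the transferase GSTP1 from 175 ± 10.4 to 147 ± 10.5 CPM (-0.25, edgeR adjusted p = 0.0194). CHAC1, which breaks glutathione down, rose from 71.8 ± 2.69 to 91.9 ± 2.92 CPM (0.36, edgeR adjusted p = 9.1e-04). The call of CHAC1 held with each library left out. Those of SLC7A11 and GSR held in 1 of 6 cases (adjusted p up to 0.160 and 0.115) and that of GSTP1 in 2 of 6 (up to 0.0939). SLC7A11 was also not called by limma on log2(FPKM + 1) (-0.25, adjusted p = 0.0600).

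Thioredoxin and peroxiredoxin genes were called higher in 4 and lower in 3 of 19, with a median of -0.10. Mitochondrial thioredoxin reductase, TXNRD2, fell from 22.0 ± 1.04 to 15.2 ± 0.712 CPM (-0.53, edgeR adjusted p = 6.0e-04). The mitochondrial peroxiredoxin PRDX3 fell from 175 ± 1.35 to 153 ± 0.746 CPM (-0.20, edgeR adjusted p = 0.0089). TXN, the cytosolic substrate of TXNRD1, was at 285 ± 6.42 and 260 ± 32.5 CPM and was not called. All 3 sestrin genes of the list, stress-induced inhibitors of mTORC1 signalling, were called higher. SESN1 changed by 0.46, SESN2 by 0.42 and SESN3 by 0.65 (edgeR adjusted p = 0.0057, 5.4e-04 and 0.0029). The calls of TXNRD2 and of the sestrins held with each library left out, and that of PRDX3 in 5 of 6 cases (adjusted p up to 0.0616). By limma on log2(FPKM + 1), TXNRD2 was at -0.32 (adjusted p = 0.0742) and SESN1 at 0.19 (adjusted p = 0.113), so both calls were lost.

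Among 4 genes of superoxide and peroxide removal, 1 was called, SOD3, the secreted superoxide dismutase (0.34, edgeR adjusted p = 0.0183, and 0.0773 at most with a library left out). SOD2, its mitochondrial counterpart, was at 130 ± 3.26 and 120 ± 5.23 CPM, and catalase, CAT, was at 117 ± 3.28 and 125 ± 0.797 CPM, and neither was called. Quinone, carbonyl and drug detoxification genes were called higher in 3 and lower in 2 of 24. ABCC3, a conjugate exporter, rose by 0.34 (edgeR adjusted p = 0.0024), and the aldehyde reductase AKR1A1 changed by -0.33 (edgeR adjusted p = 0.0072).

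Heme and iron genes were called higher in 3 and lower in 2 of the 12 tested. TFRC, the transferrin receptor, rose from 421 ± 27.3 to 513 ± 18.3 CPM (0.28, edgeR adjusted p = 0.0098, and 0.0614 at most with a library left out). ACO1, which also serves as iron regulatory protein 1, fell from 167.5 ± 4.23 to 136 ± 3.55 CPM (-0.31, edgeR adjusted p = 0.0014). Per length its groups overlapped, at 57.3, 62.0 and 56.9 TPM against 47.2, 58.8 and 61.7 TPM, and limma on log2(FPKM + 1) gave -0.12 with no call (adjusted p = 0.425). The ferritin chains FTH1 and FTL were not called, and TAZ-siRNA replicates 1, 2 and 3 held 2007, 1795 and 2976 CPM of FTH1 beside 2051 to 2331 CPM with control-siRNA. Ferroptosis genes outside the 9 were called higher in 3 and lower in 0 of the 13 tested. These 3 encode acyltransferases that load fatty acids onto phospholipids, LPCAT3 (0.44), MBOAT1 (0.61) and MBOAT2 (0.30), with edgeR adjusted p of 0.0011, 0.0023 and 0.0039, and their calls held with each library left out. Selenoprotein synthesis genes were called higher in 1 and lower in 2 of 19. Among them SEPHS2, which makes the selenium donor, fell from 84.5 ± 3.44 to 67.6 ± 7.79 CPM (-0.32, edgeR adjusted p = 0.0133, and 0.0645 at most with a library left out).

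**Figure D5:**
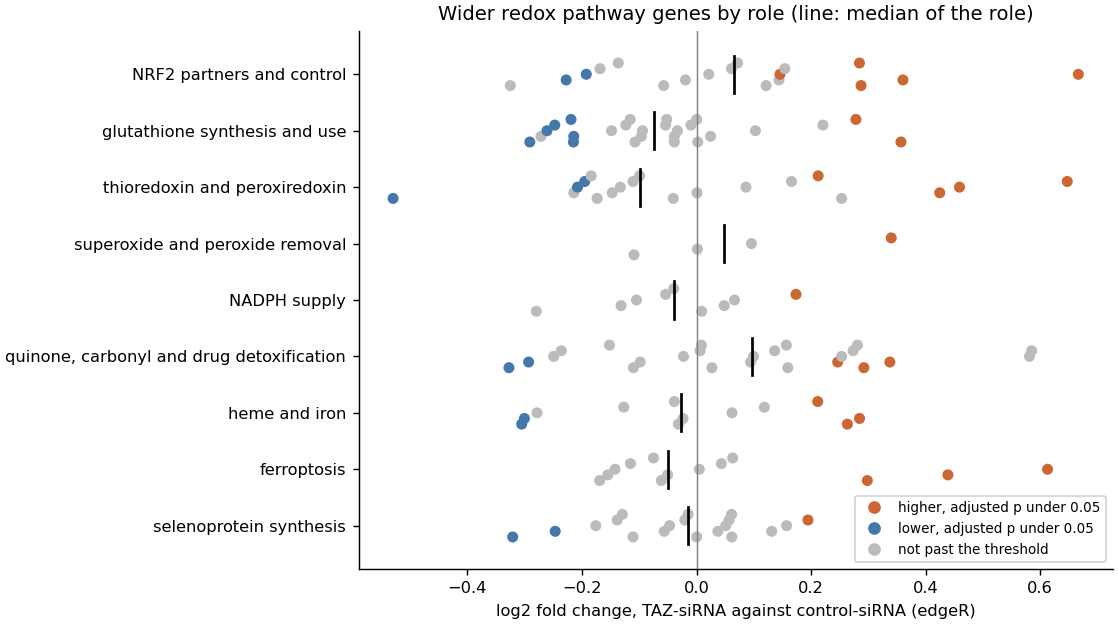
Log2 fold change of TAZ-siRNA against control-siRNA by edgeR (horizontal axis) for the 144 tested genes of the wider list, 1 row per role, with calls at an adjusted p under 0.05 in orange (higher) and blue (lower) and the median of each role as a line. The 40 calls lie on both sides of 0, and the role medians lie between -0.10 and 0.10.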

How the data were processed

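Stranded mRNA libraries of 3 control-siRNA and 3 TAZ-siRNA preparations were sequenced with paired reads. Alignment by the authors was to GRCh38 (HISAT2), and StringTie gave values for RefSeq genes and transcripts. The deposited estimated counts are whole numbers derived by the authors from read coverage. In the deposited FPKM, coverage is divided by length and depth. The deposited TPM has the same division by length and 1 total for each library. Whether counting used strand is not given in the sources used here, so overlapping genes on opposite strands cannot be told apart.

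Groups were compared over all genes that passed the filterByExpr filter (minimum count 10) with edgeR 4.0.16 (R 4.3.3), TMM scaling, the robust quasi-likelihood test and Benjamini-Hochberg adjustment, and an adjusted p under 0.05 is a call. A floor of 3 counts equals 0.0411 to 0.0618 CPM and, like all intervals of counting, covers counting error only. The biological coefficient of variation was 8.04%. Counts of replicates differed by more than sampling noise (chi-square per degree of freedom 6.77 to 41.8). Alternatives were DESeq2 1.42.0, upper-quartile factors, other filters, limma 3.58.1 with pseudocounts of 1 or 0.1 on log2 FPKM, the replicate number as a block, and each library left out. Ratios of TPM were compared by exact permutation. The fits were tested on simulated counts.

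The members and lists were chosen with earlier results of these data known. The genes named are the 9 members and, of each role of the wider list, up to 3 called genes with the largest rise and up to 3 with the largest fall (mean at least 1 CPM), with SLC7A11, BACH1, MAFG, SQSTM1, TXN, FTH1, FTL, SOD2 and CAT whatever their values, WWTR1, and the 3 genes closest to NFE2L2 in pattern. Other genes of the wider list are named only as examples of an order of libraries and were chosen after their values were seen. Some results that this rule covers are not reported here. Replicates are numbered 1 to 3 as in the value tables.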

Additional observations from a re-analysis of the deposited data

How the results depend on the processing

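No member was called by DESeq2 (25.7% of all genes called), upper-quartile factors (22%), no filter (12.6%), at least 10 counts in every library (24.6%) or limma with a pseudocount of 1 (16.6%) or 0.1 (16.7%). Leaving out single libraries, the members called higher ranged from 0 to 1 and those called lower from 0 to 3 (KEAP1, TXNRD1 and GPX4, without TAZ-siRNA replicate 3). Of all genes, 33.7% were called without TAZ-siRNA replicate 3 and 11.2 to 15.3% without any one of the others. In the wider list the calls ranged from 12 to 26 higher and from 5 to 42 lower, and over all genes from 1102 to 3102 higher and from 835 to 2826 lower, against 2012 and 1737 with all libraries. The low counts came without a control-siRNA library or TAZ-siRNA replicate 1, and the 42, 3102 and 2826 without TAZ-siRNA replicate 3. Of the 35 called wider-list genes that the naming rule covers, 14 kept the call with each library left out, 20 kept it in some cases and 1, PALB2, in none.

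With a replicate block, 1 member was called higher (NFE2L2, 0.19, edgeR adjusted p = 0.0315) and 1 lower (KEAP1, -0.21, edgeR adjusted p = 0.0062), when 30.2% of all genes were called, and the wider list had 25 higher and 31 lower calls. Deviations of same-numbered libraries from their group means correlated at -0.017, 0.0086 and 0.070 across genes. Those of differently numbered libraries correlated at -0.095 to 0.100. Among the control-siRNA libraries, replicate 3 was the highest for every member except NFE2L2, which was highest in replicate 1. Among the TAZ-siRNA libraries, replicate 3 was the highest for 9 of the 9 members. Whether same-numbered libraries were prepared together is not given in the labels and was not tested.

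With single libraries left out, the log2 fold change ran from -0.18 to 0.59 for HMOX1, -0.28 to 0.27 for GCLC, -0.31 to 0.10 for GCLM, -0.44 to 0.12 for SRXN1, -0.18 to 0.21 for FTH1 and -0.19 to 0.075 for FTL. In each of these ranges the lowest value came without TAZ-siRNA replicate 3 and the highest without TAZ-siRNA replicate 2. Without TAZ-siRNA replicate 3, FTH1, FTL, SQSTM1 (-0.40) and TXN (-0.24) were called lower (edgeR adjusted p = 0.0424, 0.0255, 0.0030 and 0.0014), when 33.7% of all genes were called. FTL was also positive when control-siRNA replicate 3 (0.024) or TAZ-siRNA replicate 1 (0.038) was left out. GCLC was negative by limma with pseudocounts of 1 (-0.012) and 0.1 (-0.013) and with the replicate block (-0.018). The difference in log2 ratio of NQO1 to HMOX1 ran from -0.31 to 0.24, against -0.06 with all libraries. The causes were not tested. With 3 libraries a group, the 95% intervals of all members except NFE2L2 and KEAP1 span changes in both directions.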

Other observations

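The 4 heat-shock genes given here ranked high for their excess in TAZ-siRNA replicate 3 over replicate 2, and were chosen after their values were seen. They had the order of TAZ-siRNA libraries of HMOX1, GCLC, GCLM, TXNRD1 and SRXN1. Because of how they were chosen, this shared order is no separate support. Other genes of the HSP70 family are not reported here. HSPA6, a strictly stress-inducible HSP70, was measured at 136, 148 and 187 CPM with control-siRNA and at 147, 92.8 and 295 CPM with TAZ-siRNA. HSPA1A was at 677, 671 and 800 CPM against 804, 570 and 1224 CPM, and its near-identical copy HSPA1B, with which it can share reads, at 1147, 1150 and 1384 CPM against 1372, 973 and 2111 CPM. The co-chaperone DNAJB1 was at 852, 847 and 1015 CPM against 996, 769 and 1390 CPM. None of the 4 was called (edgeR adjusted p = 0.535 to 0.829). In each of them TAZ-siRNA replicate 3 was the highest and TAZ-siRNA replicate 2 the lowest of the 6 libraries. HSPA6, HSPA1A and HSPA1B were, with HMOX1, GCLC and SRXN1, among the 9 genes at 50 CPM or more that were at least 2-fold higher in TAZ-siRNA replicate 3 than in replicate 2, and the other 3 were AREG, GADD45B and LOC112694756. In 1 gene the difference was that large in the other direction.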
